A study of Mus musculus with 6 samples.

Results

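The proteasome subunit genes are the protein-coding genes of the deposited table whose symbol is Psma, Psmb, Psmc, Psmd or Psme followed by a number. 43 of the 27179 genes in the table met this rule, and 40 of them, of 11468 genes in all, had enough reads to be tested. They were followed in lenses of mouse pups on postnatal day 1 (P1), strain B6/FVB, in 3 libraries of Gclc KO and 3 libraries of Gclc CON. Gclc is the gene of the catalytic chain of the ligase that takes the first step of glutathione synthesis, and the series title places the study in eye development. The promoter or cell type behind the deletion, the deleted exons, the alleles that the CON pups carry and the number of pups or lenses per library are not given in the sources used here. The labels do not say that replicates came from separate animals, so p-values measure the spread between these libraries, which may be technical.

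The proteasome is the protease that takes apart proteins tagged with ubiquitin. Its core is a barrel: outer rings of alpha subunits form the gate, and inner rings of beta subunits hold the active sites, carried by Psmb5 (chymotrypsin-like), Psmb6 (caspase-like) and Psmb7 (trypsin-like). Interferon-exposed cells and blood cells build an immunoproteasome in which Psmb8, Psmb9 and Psmb10 replace these subunits and peptides are made for class I molecules. A regulatory particle caps the barrel: its base, with the ATPases Psmc1 to Psmc6, unfolds the substrate, and its lid removes the ubiquitin. In the lens, whose fibre cells keep their proteins for life, the ubiquitin and proteasome system is known for removing cell cycle regulators and oxidised proteins.

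Gclc itself was checked first. It had 178, 283 and 173 normalised reads in CON replicates 1 to 3 and 17.9, 72.1 and 58.1 in KO replicates 1 to 3, where normalised reads are reads divided by the size factor of the library. Every KO library lay below every CON library, and the limma difference of the deposited log2 values was -1.01 (SE 0.28, adjusted p = 0.0387). The libraries held between 20361430 (CON replicate 2) and 61219009 (KO replicate 3) reads in genes. Size factors were 0.947, 0.318 and 0.678 in CON replicates 1 to 3 and 1.74, 1.66 and 1.89 in KO. The name of CON replicate 2 ends in L003 and those of the other libraries in L001. Crystallin genes took 59.5%, 68.4% and 66.1% of the reads in CON and 47.5%, 40.5% and 46.6% in KO. The 11 lens fibre markers all fell, while of 17 tested macrophage markers 13 rose and 0 fell. In bulk tissue, fewer cells of a type and less RNA per cell cannot be told apart.

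Of the 40 tested members, 0 rose and 3 fell in KO: Psmc5 and Psmc4, which encode ATPases of the base, and Psmb5, which encodes the chymotrypsin-like site. Calls were made at an adjusted p under 0.05 (limma, Benjamini-Hochberg over all tested genes). The 3 members are 7.5% of those tested, against 4.39% of all tested genes that fell and 6.91% that rose. A stricter filter kept 5010 genes with a mean at least 3 units above the lowest value. Of these 462 fell and 340 rose, and 4 members fell. The median difference of the members was -0.30 on the scale of the deposited log2 values, against 0.03 over all tested genes, with 33 members below 0 and 7 above. With the stricter filter these medians were -0.33 and -0.08. 12 of the 40 members had an unadjusted p under 0.05, against 3024 of the 11468 tested genes. The 3 KO values lay below the 3 CON values for 8 members (20%), against 14.1% of all tested genes, and above them for 2 members (5%), against 16.9%.

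These directions are relative to the size factors of the deposited table. With the library totals as scaling, the median of all tested genes moved by 0.83, 21 members were called higher and 0 lower, and the median of the members was 0.55, or -0.28 relative to that shift. Over all tested genes 793 were called higher and 504 lower, against 643 and 717 with equal library medians and 3314 and 85 with library totals. The members took 0.576%, 0.574% and 0.672% of all reads in CON replicates 1 to 3 and 0.850%, 0.810% and 0.779% in KO. Of the reads outside crystallin genes they took 1.42%, 1.81% and 1.98% in CON and 1.62%, 1.36% and 1.46% in KO. The KO share of all reads was above CON in every library, and the groups overlapped once crystallin reads were set aside. Ratios between subunits within a library do not depend on the scaling, and they are given below beside the differences. They can still carry the trend of the differences with transcript length, described below, and are given without that trend removed.

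**Figure D1:**
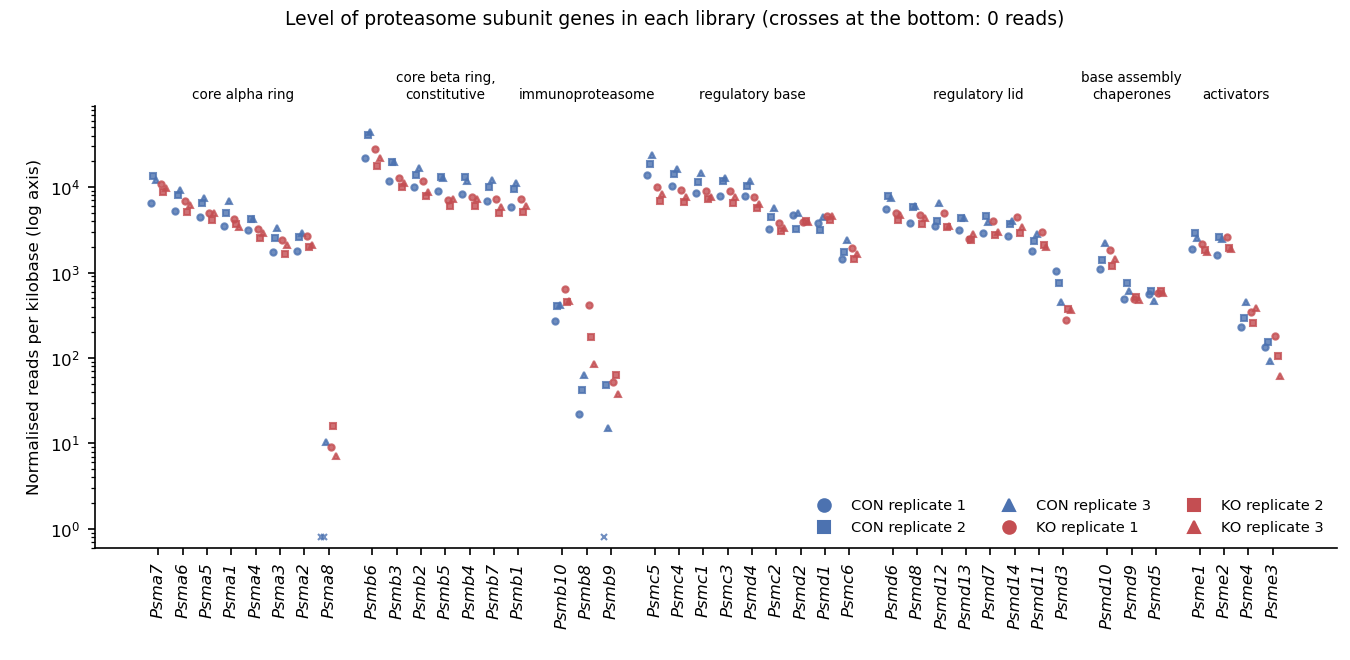
Normalised reads per kilobase of transcript (log axis) of every member but Psmb11 in each library, ordered within a class by their CON mean. Psmb6 is the highest member in CON and KO, the 3 immunoproteasome genes lie below every constitutive beta subunit, and crosses mark libraries with 0 reads.

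Levels per kilobase of transcript spanned the range from Psmb6, with 35504 ± 12067 normalised reads per kilobase in CON (SD, n = 3), to Psmb11, the beta subunit of the thymus, with 0 reads in all 6 libraries, which allows up to 3 reads per library. Psmc5 ranked 2 of the 43 in CON with 18699.8 ± 5073 and 5 in KO with 8421 ± 1627. Psmb3, a structural beta subunit, ranked 3 in CON with 17071 ± 4489.7 and 2 in KO with 11306 ± 1449.6. Psmc5 and Psmb3 did not differ beyond their SD in CON, and Psmb2 (13566 ± 3422) and Psmc4 (13526 ± 3030.2) likewise lay within each other's spread. In KO the ATPases Psmc1 (7959 ± 889), Psmc4 (7818 ± 1283) and Psmc3 (7723 ± 1277) held ranks 6 to 8 and lay within each other's SD. Psma7, an alpha subunit, ranked 10 in CON (10659.8 ± 3621) and 3 in KO (9818 ± 974). At the low end stood Psme3, Psmb8, Psmb9 and Psma8, the alpha subunit of the testis, with 125 ± 31.2, 42.7 ± 20.7, 21.4 ± 25.0 and 3.49 ± 6.04 in CON. Psma8, Psmb9 and Psmb11 were too low to be tested. The raw reads of Psma8 were 0, 0 and 12 in CON and 27, 45 and 23 in KO.

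**Figure D2:**
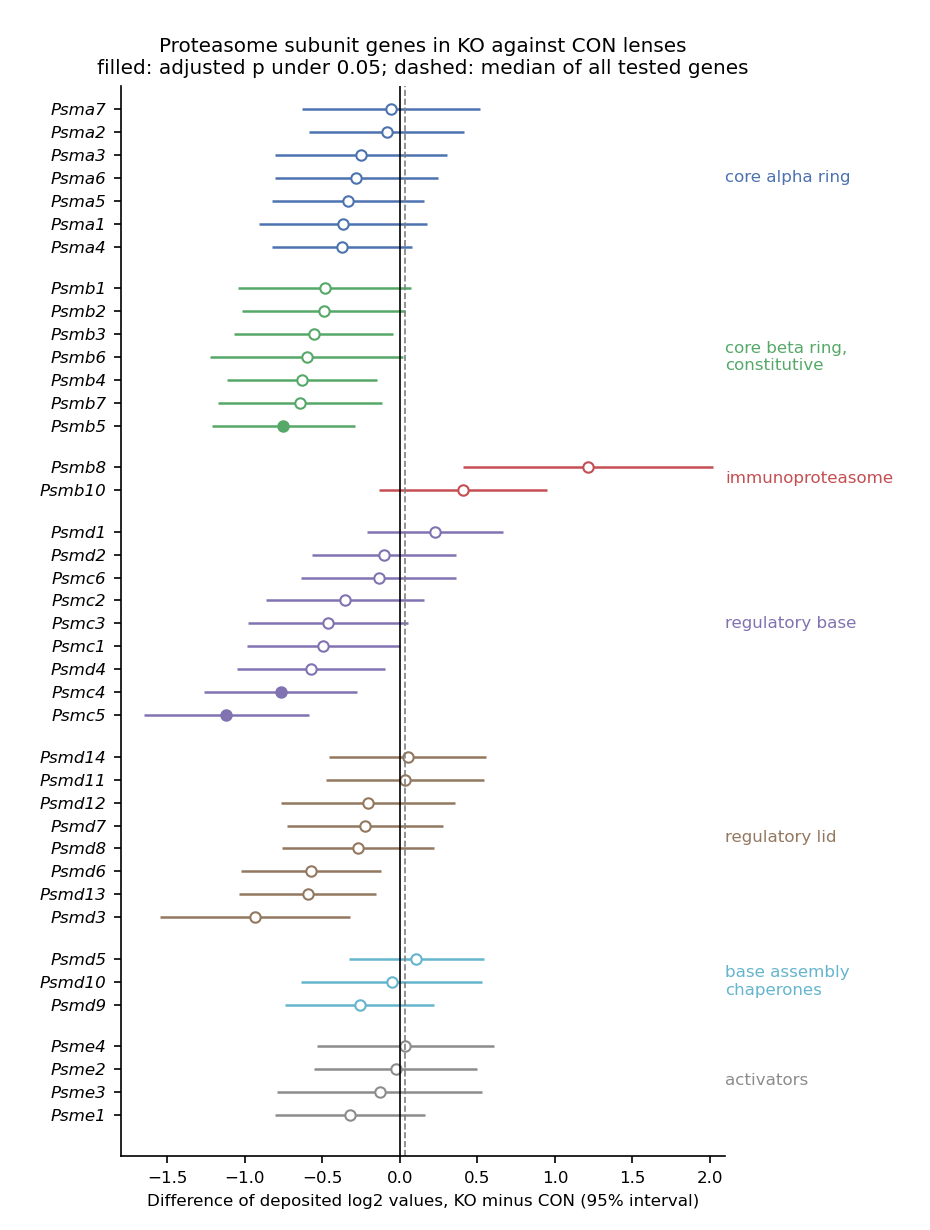
Difference of the deposited log2 values, KO minus CON, with its 95% interval for the 40 tested members by class, filled where the adjusted p is under 0.05. The 7 constitutive beta subunits lie between -0.75 and -0.49, the 7 alpha subunits between -0.38 and -0.06, and Psmb8 stands at 1.21.

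In the alpha ring 0 of 7 tested genes passed the test. Their differences ran from -0.38 to -0.06 with a median of -0.28, and adjusted p-values from 0.280 to 0.920. The member with the smallest p was Psma4, with 3633, 4878 and 4889.5 normalised reads in CON, against 3789.6, 2978 and 3393 in KO. The KO range began below the lowest CON library and ended between CON replicates 1 and 2, a difference of -0.38 (SE 0.21, adjusted p = 0.280); with library totals as scaling the fitted difference was 0.46 and called (adjusted p = 0.0434). Psma7 had 5980.1, 12204.5 and 11044.6 normalised reads in CON, against 9847, 8066 and 9009 in KO, so that all KO libraries lay inside the CON range. Relative to the median of all tested genes the median of the alpha ring was -0.31, against 0.05 after quantile normalisation, where 3 of 7 genes lay below the median of all genes.

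The differences of the constitutive beta ring lay below those of the alpha ring, a description with no test: its 7 values ran from -0.75 to -0.49 with a median of -0.60, and 1 gene, Psmb5, passed the test. Psmb5 had 8096, 11893 and 11435.5 normalised reads in CON, against 6369, 5364 and 6493 in KO. All 3 KO libraries lay below the lowest CON library, replicate 1, and the mean was 1.72-fold lower (difference -0.75, SE 0.21, adjusted p = 0.0408). The call held without CON replicate 1 (adjusted p = 0.00848) and was lost when any of the other 5 libraries was left out, with the highest adjusted p, 0.206, without KO replicate 2. Psmb6 had 17312, 32557 and 35126.5 normalised reads in CON, against 22349, 14154 and 17719.9 in KO. CON replicate 1 lay within the KO range, and the difference was -0.60 (SE 0.28, adjusted p = 0.204). Psmb7 had 8042, 11540.4 and 14096 in CON and 8505, 5832 and 6746 in KO, with CON replicate 1 again inside the KO range (difference -0.64, SE 0.24, adjusted p = 0.113). The remaining members, Psmb1 to Psmb4, lay between -0.63 and -0.49 with adjusted p-values from 0.0910 to 0.256. With library totals as scaling 0 of the 7 genes were below 0 and the median was 0.26, or -0.60 relative to the median of all genes; after quantile normalisation it was -0.20 relative to that median, and in both fits 7 of 7 lay below it.

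The 250 bases before the RefSeq start are shown for the 2 catalytic genes found to hold an antioxidant response core. The factors that bind this core, Nfe2l1 and Nfe2l2, are known regulators of proteasome genes. The remaining constitutive catalytic gene, Psmb7, had no matched promoter and was not searched. The same holds for Psma8, Psmb1, Psmb2, Psmc3, Psmd3 and Psmd7. Capitals mark the motif, and the build is GRCm38.p6. Psmb5 lies at chr14:54617996-54618245 on the minus strand and Psmb6 at chr11:70525107-70525356 on the plus strand, both written 5′ to 3′ along the gene.
Psmb5: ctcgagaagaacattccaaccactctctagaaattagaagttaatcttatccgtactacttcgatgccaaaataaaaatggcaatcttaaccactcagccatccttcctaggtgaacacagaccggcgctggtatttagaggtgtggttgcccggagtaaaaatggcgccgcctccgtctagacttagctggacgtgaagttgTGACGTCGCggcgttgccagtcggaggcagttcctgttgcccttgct
Psmb6: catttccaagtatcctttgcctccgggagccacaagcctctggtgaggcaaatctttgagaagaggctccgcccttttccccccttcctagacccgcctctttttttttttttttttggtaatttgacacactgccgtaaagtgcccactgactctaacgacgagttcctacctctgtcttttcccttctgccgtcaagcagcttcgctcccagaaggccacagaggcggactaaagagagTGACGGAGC
The core, TGACNNNGC on either strand, was found in 5 of the 36 members with a promoter in the table (13.9%) against 12.0% of 17492 protein-coding genes with a promoter there. The others were Psmc6, Psmd12 and Psmd9, whose differences were -0.14, -0.20 and -0.26. The CCAAT box, CCAAT on either strand, was found in 14 members (38.9%) against 39.5% of all promoters. No occurrence of one searched motif overlapped another in these members. A match is a run of letters and was not tested as a binding site.

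The balance of the core rings was read within each library, as the sum of the beta subunits over the sum of the alpha subunits, both in normalised reads per kilobase. It was 2.80, 2.84 and 2.78 in CON and 2.33, 2.06 and 2.16 in KO. The CON libraries were closer to each other than to any KO library, and every KO library lay below them. Without Psmb6, the most abundant beta subunit, the ratio was 1.98, 1.88 and 1.82 in CON and 1.54, 1.43 and 1.46 in KO. These ratios were chosen after the values were seen and carry no test.

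**Figure D3:**
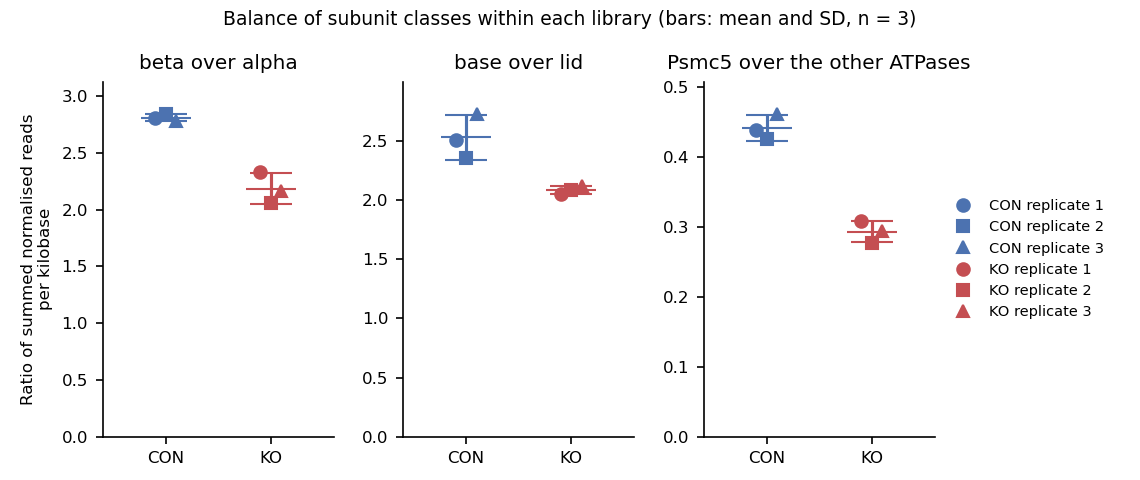
Ratio of summed normalised reads per kilobase within each library, with mean and SD (n = 3): beta over alpha subunits, base over lid subunits, and Psmc5 over the other 5 ATPases. In each of the 3 panels the KO libraries lie below the CON libraries, for beta over alpha at 2.06 to 2.33 against 2.78 to 2.84.

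The tested immunoproteasome genes had differences above 0, against 14 of 14 below 0 in the constitutive rings, but 0 of 2 passed the test, and their levels were far below those of the constitutive genes. Psmb8, the inducible counterpart of Psmb5, had 35.9, 69.2 and 103 normalised reads in CON, against 672, 289.8 and 139.5 in KO. All KO libraries lay above all CON libraries, and the KO libraries differed more among themselves than the CON libraries did. The KO mean was 5.29-fold the CON mean, and the difference of 1.21 missed the threshold (SE 0.37, adjusted p = 0.0560). Without KO replicate 1, the highest KO library, the mean was 3.09-fold that of CON and the difference 0.81 (adjusted p = 0.176). The difference was past the threshold without KO replicate 3 (1.57, adjusted p = 0.0252) and with the length trend removed, and in no other fit. The adjusted p was 0.109 without a filter, 0.214 in voom with the deposited size factors and 0.205 with non-crystallin scaling. The stricter filter left Psmb8 out. Psmb10, the counterpart of Psmb7, had 357, 532 and 543 normalised reads in CON, against 839, 596 and 614 in KO, also without overlap (difference 0.41, SE 0.25, adjusted p = 0.327). Psmb9, the counterpart of Psmb6, had 0, 21 and 14 raw reads in CON and 122, 141 and 98 in KO, or 0, 66.1 and 20.6 against 70.3, 84.8 and 51.8 normalised reads, which overlap.

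Set against its constitutive counterpart in the same library, each inducible subunit had its 3 highest ratios in the KO libraries. Psmb8 was 0.245%, 0.321% and 0.499% of Psmb5 per kilobase in CON and 5.83%, 2.98% and 1.19% in KO. Psmb9 was 0%, 0.120% and 0.0347% of Psmb6 in CON and 0.186%, 0.353% and 0.173% in KO. Psmb10 was 3.93%, 4.08% and 3.41% of Psmb7 in CON and 8.72%, 9.04% and 8.06% in KO. The mean log2 ratio, with 1 normalised read added to both genes, was higher in KO by 2.99 for Psmb8 to Psmb5, by 3.21 for Psmb9 to Psmb6 and by 1.18 for Psmb10 to Psmb7. Each gave p = 0.1 in a two-sided exact permutation test, which is also the adjusted p over the 3 pairs and the smallest that 3 against 3 libraries allow. For Psmb9 the size rests on CON replicate 1, which had 0 reads: without it the difference was 1.78, and with 5 reads added in place of 1 it was 2.41. The direction of the Psmb10 ratio is that of both of its genes, with Psmb10 higher and Psmb7 lower in the KO mean.

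**Figure D4:**
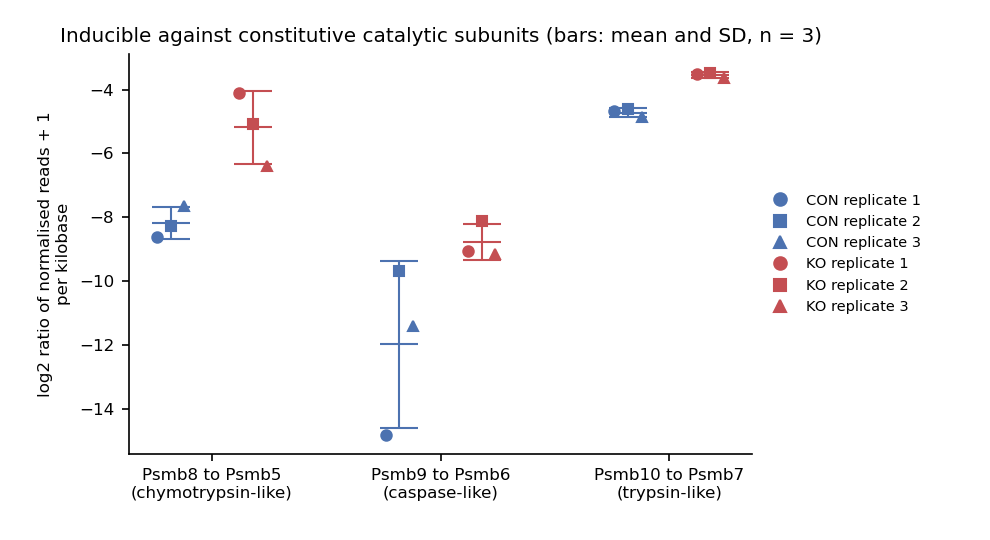
log2 ratio of normalised reads plus 1 per kilobase, inducible over constitutive subunit, in each library, with mean and SD (n = 3). The 3 KO libraries lie above the 3 CON libraries in each pair, most tightly for Psmb10 to Psmb7, and the lowest point is CON replicate 1 with 0 reads of Psmb9.

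Macrophages are among the blood cells that carry the immunoproteasome, and their markers were likewise higher in the KO libraries. The summed normalised reads of 18 macrophage markers were 3663, 3135 and 5494 in CON and 33882, 16079 and 9731 in KO, the same order of KO libraries as for Psmb8, while the CON order differed, with the lowest sum in replicate 2 and the lowest Psmb8 value in replicate 1. Defining markers at 0 reads were Ptprc and Adgre1 in CON replicate 2 and Cd14 and Itgam in CON replicate 3. Of 12 lymphocyte and natural killer markers, 9 to 10 were at 0 reads in the CON libraries and 6 to 8 in the KO libraries, with sums of 101 to 286 normalised reads in CON and 274 to 422 in KO. The part of macrophages in the immunoproteasome values was not tested. The 250 bases before the start of Psmb8 (chr17:34197945-34198194, plus strand, GRCm38.p6) are shown because it was the only one of the 36 members with a STAT palindrome, TTCNNNGAA, in capitals.
Psmb8: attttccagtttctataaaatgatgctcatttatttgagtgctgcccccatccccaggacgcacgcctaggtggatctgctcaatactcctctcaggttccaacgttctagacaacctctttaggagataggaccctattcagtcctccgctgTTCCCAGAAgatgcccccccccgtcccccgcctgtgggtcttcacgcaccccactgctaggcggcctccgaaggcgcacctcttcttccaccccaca
The palindrome was found in 2.78% of the members' promoters against 7.65% of all, and the core of the interferon-stimulated response element on either strand in 3 members, Psmb3, Psmd4 and Psmd9 (8.33% against 3.48%).

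In the base 2 of 9 genes fell, 8 of 9 were below 0, and the median was -0.46. Psmc5, an ATPase of the ring that threads the substrate into the core, had the smallest p of all members. It had 18065, 24352 and 31409.6 normalised reads in CON, against 13327, 9064 and 10857 in KO. All KO libraries lay below all CON libraries, and the mean was 2.22-fold lower (difference -1.12, SE 0.24, adjusted p = 0.0126). The call was lost without KO replicate 2 (-0.99, adjusted p = 0.0723) and with library totals as scaling, where the difference was -0.29 (adjusted p = 0.147). Psmc4, another ATPase of that ring, had 14751, 20327 and 23353 in CON and 13223, 9555 and 10996 in KO. All KO libraries lay below CON replicate 1, the lowest CON library, and the difference of -0.77 (SE 0.23, adjusted p = 0.0494) was called without CON replicate 1 (adjusted p = 0.0112) but with none of the other 5 libraries left out, the highest adjusted p being 0.232 without KO replicate 2. With library totals as scaling it was 0.07 (adjusted p = 0.643).

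The other ATPases were not called: Psmc1 differed by -0.49, Psmc3 by -0.46, Psmc2 by -0.35 and Psmc6 by -0.14, with adjusted p-values from 0.188 to 0.752. Psmd4, a ubiquitin receptor, differed by -0.58 (adjusted p = 0.115). The scaffold subunit Psmd1 was the one base gene above 0, with 11988, 9753 and 13838 normalised reads in CON and 14385, 12678 and 14353 in KO. The KO libraries overlapped with CON replicate 3, and the difference was 0.23 (SE 0.20, adjusted p = 0.516); after quantile normalisation it was 0.56 and called (adjusted p = 0.0483). Psmd2, the other large scaffold subunit, differed by -0.10 (adjusted p = 0.809). Relative to the median of all tested genes the median of the base was -0.49, against -0.06 after quantile normalisation and -0.47 with library totals, where the fitted median was 0.39.

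Within a library the ATPases are made for one ring, and Psmc5 was compared with the sum of the other 5 per kilobase. The ratio was 0.438, 0.425 and 0.462 in CON and 0.308, 0.277 and 0.295 in KO. Against Psmc6 alone it was 9.43, 10.6 and 9.84 in CON and 5.26, 4.84 and 4.95 in KO. The KO libraries lay below the CON libraries in both ratios, with a gap wider than the range within either group. Both were chosen after the values were seen and carry no test. The 250 bases before the start of the 2 base genes that fell held none of the 4 motifs searched and are shown for comparison with Psmb5; Psmc5 lies at chr11:106255935-106256184 on the plus strand and Psmc4 at chr7:28050093-28050342 on the minus strand (GRCm38.p6).
Psmc5: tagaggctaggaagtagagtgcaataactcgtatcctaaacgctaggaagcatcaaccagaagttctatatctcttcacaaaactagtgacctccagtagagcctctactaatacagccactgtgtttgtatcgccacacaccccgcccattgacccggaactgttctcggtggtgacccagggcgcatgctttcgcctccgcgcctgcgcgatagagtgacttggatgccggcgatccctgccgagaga
Psmc4: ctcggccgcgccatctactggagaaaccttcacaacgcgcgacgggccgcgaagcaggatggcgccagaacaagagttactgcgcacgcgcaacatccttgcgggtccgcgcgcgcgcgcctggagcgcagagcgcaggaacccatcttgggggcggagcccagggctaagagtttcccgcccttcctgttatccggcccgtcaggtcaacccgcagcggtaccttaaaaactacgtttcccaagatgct
The share of G and C was 53.2% for Psmc5 and 63.6% for Psmc4, against 49.6% for Psmb5 and 55.6% for Psmb8.

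In the lid 0 of 8 genes passed the test; differences ran from -0.94 to 0.05 with a median of -0.25, which was 0.01 after quantile normalisation and 0.60 with library totals. Psmd3, a structural lid subunit and the least abundant one, had 2246, 1627 and 975 normalised reads in CON, against 602, 804 and 779 in KO. The groups did not overlap, and the difference of -0.94 missed the threshold (SE 0.28, adjusted p = 0.0537). It passed without CON replicate 3, the lowest CON library (-1.22, adjusted p = 0.0145), and with the stricter filter, with the library medians made equal, after quantile normalisation and with the length trend removed (adjusted p from 0.0219 to 0.0469). Psmd13 and Psmd6 were next, at -0.59 (adjusted p = 0.0824) and -0.57 (adjusted p = 0.0987), also without overlap. Psmd14, the deubiquitinating enzyme of the lid, had 4135, 5684 and 6232 normalised reads in CON, against 6909, 4436 and 5327 in KO. Its groups overlapped and the difference was 0.05 (SE 0.23, adjusted p = 0.921). Base over lid, summed per kilobase, was 2.50, 2.35 and 2.73 in CON and 2.05, 2.09 and 2.12 in KO; without Psmc5 it was 1.94, 1.80 and 2.05 against 1.70, 1.77 and 1.78. The groups did not overlap in either form, with the smaller gap once Psmc5 was left out. Both ratios were chosen after the values were seen and carry no test.

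The 3 genes for chaperones that assemble the base, Psmd5, Psmd9 and Psmd10, had differences of 0.10, -0.26 and -0.05 and adjusted p-values from 0.499 to 0.927. Psmd5 had 2498, 2672 and 2016 normalised reads in CON, against 2511, 2643 and 2564 in KO, so that the KO libraries lay within the CON range. Psmd9 had 1265, 1957.5 and 1575 in CON and 1279, 1352 and 1238 in KO, which overlap with CON replicate 1.

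The 4 activator genes gave 0 calls. Psme1 and Psme2, subunits of one interferon-inducible cap, differed by -0.32 (SE 0.22, adjusted p = 0.390) and -0.03 (SE 0.24, adjusted p = 0.959). Psme1 had 2112, 3260.4 and 2854 normalised reads in CON, against 2431, 2061 and 1920.2 in KO, and Psme2 had 1532, 2524 and 2384 in CON and 2538, 1885 and 1819 in KO. Both overlapped between the groups. Their ratio per kilobase was 1.19, 1.12 and 1.04 in CON and 0.829, 0.946 and 0.913 in KO, so that Psme1 exceeded Psme2 in each CON library and in none of the KO libraries; it was chosen after the values were seen and carries no test. Psme3, the nuclear activator, had 354, 406 and 243 normalised reads in CON, against 478, 281 and 165 in KO (difference -0.13, SE 0.30, adjusted p = 0.831). Psme4, a large single-chain activator, had 1505, 1913 and 2909 in CON and 2229.97, 1645 and 2486 in KO (difference 0.04, SE 0.26, adjusted p = 0.950). The groups overlapped in all 4 genes. With library totals as scaling the fitted differences of Psme1, Psme2 and Psme3 were above 0, at 0.52, 0.84 and 0.64, and Psme4 was at 0.87, with Psme2 and Psme4 called (adjusted p = 0.0183 and 0.0241). With equal library medians Psme4 was below 0 at -0.09. Leaving out a library also changed the sign for Psme2, Psme3 and Psme4.

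**Figure D5:**
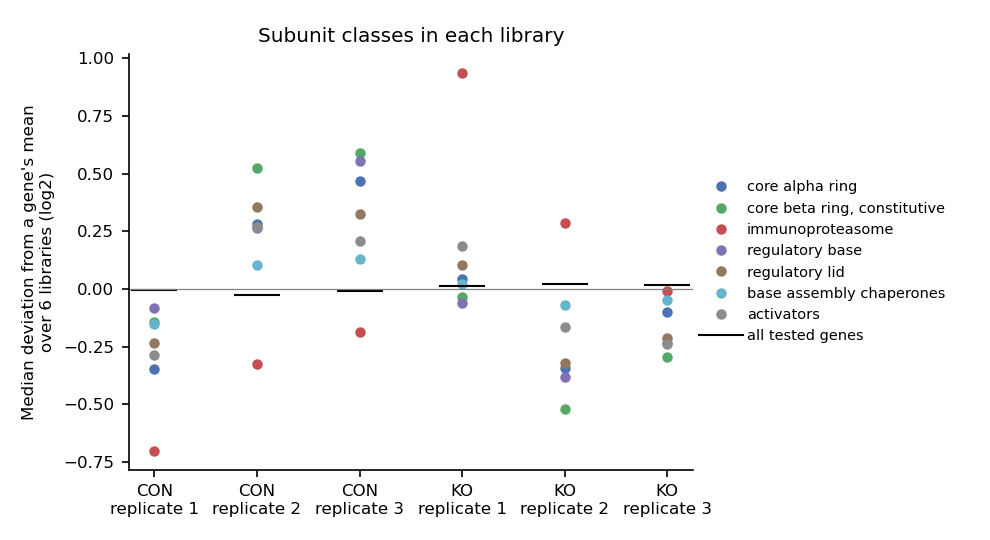
Median over the tested members of each class of the deviation of a library's deposited log2 value from the gene's mean over the 6 libraries, with the same for all tested genes (black bars). CON replicate 1 and KO replicate 2 are the lowest libraries of their groups for most classes. The bars for all tested genes stay within 0.03 of 0, as the size factors of the deposited table hold them near it.

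The members moved together between replicates as well as between groups. CON replicate 1 was the lowest CON library for 35 of 40 tested members, and for 14 of 14 in the constitutive rings. KO replicate 2 was the lowest KO library for 30 members and KO replicate 1 the highest for 33. The median deviation of the members from their mean over 6 libraries was -0.22, 0.29 and 0.45 in CON and 0.02, -0.32 and -0.20 in KO. That of all tested genes lay between -0.03 and 0.02. The size factors are medians of ratios over genes and hold this median near 0, so its steadiness is no result. For the members CON replicate 1 lay between the KO libraries, and 13 members were called lower without it against 0 without KO replicate 2. Crystallin shares ordered the libraries in part the same way: CON replicate 1 had the lowest share of the CON libraries and KO replicate 2 the lowest of the KO libraries. The part of crystallin content or lens fibre RNA in the members' differences was not tested.

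Transcript length moved with the differences. Over 10937 tested genes with a length the median difference rose from -0.32 for 743 genes of 1000 bases or less to 0.15 for 1991 genes over 5000 bases. The members are short, with a median of 1533.5 bases against 2902 for all genes, and shortest in the constitutive beta ring (899 bases, against 1201 in the alpha ring). Spearman's rho between length and difference was 0.43 across the 40 members and 0.18 across all genes, as a description across genes that share these libraries. With the length trend removed, the median was -0.44 for the beta ring, -0.18 for the alpha ring, -0.40 for the base and -0.18 for the lid. In that fit 5 members fell, Psmc5, Psmc4, Psmb5, Psmd3 and Psmd13, and Psmb8 rose (1.28, adjusted p = 0.0376).

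Genes that work with the proteasome were described from 4 lists. Of 17 assembly factors and associated proteins 0 passed the test (median 0.00). Of the 17, 4 had an unadjusted p under 0.05, against 3024 of the 11468 tested genes. Psmg1, an assembly chaperone of the alpha ring, had 2368 ± 595 normalised reads in CON, against 1272 ± 286 in KO (SD, n = 3; difference -0.81, SE 0.25, adjusted p = 0.0570), and Zfand5, a proteasome-binding protein, differed by -0.77 (adjusted p = 0.0683). Zfand2a and Ube3c were the ones with the smallest p above 0, at 0.67 (adjusted p = 0.218) and 0.38 (adjusted p = 0.374).

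Of 7 tested genes of the transcriptional control of proteasome genes, 1 rose and 0 fell. The gene that rose was Maff, a small Maf protein, a partner of Nfe2l1 and Nfe2l2, with 63.3, 40.9 and 4.42 normalised reads in CON and 162, 265 and 327 in KO (difference 1.35, SE 0.31, adjusted p = 0.0158). Every KO library lay above every CON library. The call held in 12 of 17 fits, among them voom with library totals (adjusted p = 0.0477). It was lost in voom with the deposited size factors or non-crystallin scaling (adjusted p up to 0.128). It was also lost with log2 of normalised reads plus 1 and without KO replicate 2 or 3. Nfe2l2, the factor of the antioxidant response, had 816, 762 and 516 in CON and 1074, 1174 and 1089 in KO, without overlap and short of the threshold (0.58, SE 0.23, adjusted p = 0.129). Nfe2l1, the factor that restores proteasome genes when the protease is inhibited, had 1277, 913 and 712 in CON and 532, 965 and 879 in KO (-0.24, SE 0.27, adjusted p = 0.623). Mafg, another small Maf gene, differed by -1.22 with overlap (SE 0.38, adjusted p = 0.0629).

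Of 25 tested genes of ubiquitin, its activation and delivery, 1 rose and 1 fell. Sqstm1, a receptor that carries ubiquitin-tagged proteins to autophagy, had 9184, 7245 and 7255 normalised reads in CON, against 22853, 35589 and 42262 in KO, a difference of 2.03 (SE 0.25, adjusted p = 0.000595). It was called in all 18 fits. Ubb, a polyubiquitin gene, had 38375, 59332 and 58943 in CON and 34222.5, 25656 and 28416.5 in KO, without overlap (-0.81, SE 0.23, adjusted p = 0.0468). Its call held in 6 of 18 fits, and with library totals the difference was 0.05 (adjusted p = 0.695). Ube2d1, a ubiquitin-conjugating enzyme, differed by 0.65 (adjusted p = 0.119).

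Of 11 tested genes of interferon response and class I peptide supply, which hold the usual partners of the immunoproteasome, 3 rose and 1 fell. Erap1, a peptidase that trims peptides for class I, rose by 1.38 (SE 0.27, adjusted p = 0.00763) and Tapbp, a loading factor, by 1.16 (SE 0.24, adjusted p = 0.0108). Irf1, a transcription factor that induces Psmb8 to Psmb10, had 10.6, 9.44 and 38.3 normalised reads in CON, against 129.6, 168 and 211 in KO (1.21, SE 0.27, adjusted p = 0.0138). All KO libraries lay above all CON libraries for these 3 genes. The calls of Erap1 and Tapbp were lost without KO replicate 2 (adjusted p = 0.0536 and 0.0802). That of Irf1 held in 13 of 17 fits, among them voom with library totals (adjusted p = 0.0441). It was lost in voom with the deposited size factors or non-crystallin scaling, and without KO replicate 2 or 3 (adjusted p up to 0.129). Among the KO libraries Irf1 was highest in replicate 3, Psmb8 and Psmb10 in replicate 1, and Psmb9 in replicate 2. The part of Irf1 in the values of these genes was not tested. Nlrc5, an activator of class I genes, differed by -0.20 (adjusted p = 0.696).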

How the data were processed

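RNA of P1 lenses was sequenced in 6 libraries. Per the submitters' processing notes, the authors used Trimmomatic, HISAT2 2.1.0, featureCounts 1.6.4 and DESeq2 2.11.0.6 with the mm9 build, and they deposited variance-stabilised log2 values of 27179 genes. How reads with several matches and strand were counted is not given in the sources used here, so reads shared with processed copies or overlapping genes cannot be told apart. The transformation was inverted to reads, which came within 0.017 of whole numbers. The deposited log2 values of genes whose mean exceeded the lowest value by 1 unit or more were fitted with limma 3.58.1 under R 4.3.3 (linear model and eBayes with trend), so differences of low genes are understated. The fit was tried on simulated reads that varied independently between genes. The members moved together between libraries, a setting that the simulation did not cover. Symbols were matched for 25275 IDs, lengths are of the principal transcripts of GENCODE M21, and promoters come from RefSeq (GRCm38.p6, 36 of 43 members matched). Intervals of 95% are for the mean difference, KO minus CON, and were computed from the spread between libraries.

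Same-numbered KO and CON libraries did not deviate together (correlations -0.36, -0.13 and -0.14), so numbers were not taken as pairs. Members and lists were chosen with earlier results of these data known. Named were members past the threshold, the catalytic subunits of both kinds, the activators, the smallest p in each direction per class, and up to 2 genes per direction, or all called, per list; other members, and the ratios between classes, were named after their values were seen. Some genes of the lists are counted but not reported here by name. Alternatives covered filters, scaling, voom on recovered reads, a replicate block and leaving out each library; non-crystallin scaling and removal of the length trend were added after seeing the data. Of the other marker lists, 2 of 7 lens epithelium genes rose and 4 fell, 2 of 4 retina genes rose, 1 of 4 red cell genes fell, and 0 of 8 endothelium genes and 0 of 1 tested lymphocyte genes were called.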

Additional observations from a re-analysis of the deposited data

How the results depend on the processing

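The median difference of the members, given relative to the shift of all genes where a scaling moved that by over 0.1, lay between -0.50 (without CON replicate 1) and -0.09 (quantile normalisation). The quantile value is as fitted, and the median of all tested genes was -0.05 in that fit. Relative to that median the alpha ring was at 0.05, the lid at 0.06, the base at -0.06 and the constitutive beta ring at -0.20. No member was called higher in the reported fit, against 1 after quantile normalisation (Psmd1), 21 with library totals and 1 with the length trend removed (Psmb8), and 0 to 1 when a library was left out. The 3 lower calls became 1 without a filter, with log2 of normalised reads plus 1, without a variance trend, with the replicate block and with non-crystallin scaling, 0 with library totals, 5 with the length trend removed, and 0 (without KO replicate 2) to 13 (without CON replicate 1) when a library was left out. Psmc5 was the gene called in each fit with 1 lower call. The lower calls were 2, Psmc5 and Psmd3, after quantile normalisation and without CON replicate 3. They were 2, Psmc5 and Psmb5, in voom with the deposited size factors. Over all genes the 1297 calls became 802 with the stricter filter, 3399 with library totals, 863 with non-crystallin scaling and 533 (without KO replicate 2) to 1943 (without CON replicate 1) when a library was left out. Psme2 changed sign to 0.0445 with quantile normalisation, 0.0219 with voom and 0.21 with the length trend removed, and Psme4 to -0.0542 with the latter. Relative to the shift of all genes Psme2 was 0.0106 with library totals and 0.0278 with non-crystallin scaling, or 0.84 (adjusted p = 0.0183) and 0.23 as fitted. Of the members named by the rule, the fitted values also changed sign for Psma4, Psmb5, Psmb6, Psmb7, Psmc4, Psmd9, Psme1 and Psme3 with library totals (0.0727 to 0.64), for Psme3 with non-crystallin scaling (0.0197), and for Psmd14, Psmd5 and Psme4 with equal library medians (-0.0737, -0.0194 and -0.0886). When a library was left out, Psme2 ran from -0.23 to 0.0962, Psme4 from -0.16 to 0.28, Psmd14 from -0.12 to 0.20, Psmd5 from -0.0058 to 0.18 and Psme3 from -0.39 to 0.12. The causes were not tested. The pair ratios kept their direction when taken from the deposited values and with 5 normalised reads added. Leaving out a library could not reverse them, as every KO ratio lay above every CON ratio. The other alternatives were not applied to the pairs. The replicate block changed the calls of Psmb5 and Psmc4 and of no other member. Depth limits the low members: 3 reads in a library equal 1.59 to 9.44 normalised reads, against 0 to 84.8 for Psmb9.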
